A study of Mus musculus with 77 samples.

Results

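The loss of IRP1 was set beside the loss of IRP2 in mouse liver at Zeitgeber time 12 (ZT12), counted in hours after lights on. All 12 livers collected at ZT12 were used, out of 24 livers in the series, and the 12 livers collected at ZT5 entered only as a separate set. The 12 livers formed 4 groups of 3 adult males, aged between 12 and 24 weeks, all on a C57BL/6J background: Aco1-/- mice homozygous for the Aco1 tm1.1Mwh allele, Aco1+/+ controls, Ireb2-/- mice homozygous for the Ireb2 tm1.2Mwh allele, and Ireb2+/+ controls. Both deletions are carried by every cell of the body, so the hepatocytes of a knockout were exposed to whatever else differed in that animal. Each line had its own control mice, and no control was shared.

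From each liver a ribosome profiling library was made, which counts ribosome-protected mRNA fragments (RPFs) and so reads out protein synthesis, together with a library of total RNA. Translation efficiency (TE) was the RPF level divided by the RNA level of the same mouse. For each gene the Aco1 effect was the log2 difference of Aco1-/- from Aco1+/+, the Ireb2 effect was the log2 difference of Ireb2-/- from Ireb2+/+, and the difference of effects was the first minus the second. A positive difference of effects therefore means a more positive log2 difference in Aco1-/- than in Ireb2-/-. The shared effect was the mean of both, and a call on it does not show that each line moved. Levels are given as CPM, the reads in coding sequence (CDS) scaled by library size and by the upper quartile of each library. CPM compares mice for one gene and not one gene with another, because it does not account for transcript length. Errors after ± are standard errors of the fit, with 3 mice in every group, and a gene was called where the adjusted p was below 0.05 (edgeR quasi-likelihood test, Benjamini-Hochberg over 10696 genes). The p-values measure the spread among these mice, and in a liver piece fewer cells of a type and less RNA per cell cannot be told apart.

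IRP1 and IRP2 are RNA-binding proteins that sense cellular iron. When iron is scarce they bind stem-loops called iron-responsive elements (IREs). An IRE in the 5′ untranslated region (UTR), as in the ferritin mRNAs Ftl1 and Fth1, lets a bound IRP block translation, while IREs in the 3′ UTR of Tfrc, the transferrin receptor, let a bound IRP stabilise the mRNA. IRP1 changes form: with an iron-sulfur cluster it is the cytosolic aconitase, and without the cluster it binds RNA. IRP2 carries no such cluster and is removed in iron-replete cells through FBXL5, the substrate receptor of a ubiquitin ligase. In liver these proteins stand beside hepcidin, the hormone by which hepatocytes set iron export in the rest of the body.

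CDS counts per library ranged from 852293 to 3934371 for RNA and from 3987815 to 11061211 for RPFs, so RPF differences were the better determined. Knockout and control mice did not overlap, in either direction, in 11.6%, 20.4% and 11.1% of all genes tested in RNA, RPFs and TE in the Aco1 line, and in 9.77%, 10.6% and 9.72% in the Ireb2 line. The median SE of the difference of effects was 0.30 in RPFs, 0.37 in RNA and 0.44 in TE, on the log2 scale. Hepatocyte markers were abundant in all livers, with 8 marker genes summing to between 148290 and 191270 RNA CPM. The 11 exocrine pancreas markers summed to 293 RNA CPM and 1153 RPF CPM in Ireb2-/- replicate 1 and to at most 16.3 CPM in any other library, and Amy2a5 among them was at 0 everywhere. Erythroid markers summed to 83.4, 103 and 1.91 RNA CPM in Aco1-/- and to between 14.1 and 64.4 in the other livers, so Aco1-/- replicate 3 stood apart. Leaving out that mouse raised most the RPF and TE counts of calls for the difference of effects, the shared effect and the Aco1 effect, and those counts are given with and without it.

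The deleted genes came first, as a check on the labels. Aco1, on chromosome 4 (GRCm38.p6 chr4:40143265-40199009), encodes IRP1. Its RPF level was 512, 581 and 591 CPM in Aco1+/+ and 123.2, 97.8 and 109.5 CPM in Aco1-/-. In the other line it was 568, 518 and 603 CPM in Ireb2+/+ and 554, 548 and 485 CPM in Ireb2-/-. The Aco1-/- livers lay far below all others, and the groups of the Ireb2 line overlapped. For RPFs the difference of effects was −2.26 ± 0.17 (adjusted p = 2.55e-07), and for TE it was −1.50 ± 0.16 (adjusted p = 6.9e-07). In RNA the level was 320, 355 and 358 CPM in Aco1+/+ and 215, 191 and 168 CPM in Aco1-/-. The Aco1 effect on RNA was −0.86 ± 0.13 (adjusted p = 0.00243), while the difference of effects in RNA, −0.77 ± 0.18, was not past the threshold (adjusted p = 0.958). Reads thus remained in the coding sequence of the deleted gene, and its RNA fell by less than its footprints.

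Ireb2, on chromosome 9 (GRCm38.p6 chr9:54862658-54912534), encodes IRP2. Its RPF level was 77.6, 81.4 and 62.3 CPM in Ireb2+/+ and 37.8, 32.5 and 41.2 CPM in Ireb2-/-. It was 56.6, 71 and 74.8 CPM in Aco1+/+ and 74.4, 66.9 and 79.8 CPM in Aco1-/-. Ireb2-/- lay below every other liver, and the groups of the Aco1 line overlapped. The Ireb2 effect on RPFs was −0.98 ± 0.15 (adjusted p = 0.0149), past the threshold in 14 of 18 fits, and the difference of effects, 1.11 ± 0.20, lay just outside the threshold (adjusted p = 0.0527). In RNA the Ireb2 groups overlapped, at 141, 136 and 90.8 CPM against 116, 115 and 98.9 CPM.

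The log2 TE of Ireb2 differed between the lines by 1.39 ± 0.24, which was called (adjusted p = 0.00592). It was −0.86, −0.74 and −0.54 in Ireb2+/+ and −1.62, −1.83 and −1.26 in Ireb2-/-. In the Aco1 line it was −0.99, −1.23 and −1.19 in controls and −0.74, −0.82 and −0.25 in Aco1-/-. The groups did not overlap in either line and stood in opposite order, lower without IRP2 and higher without IRP1. Neither effect alone passed the test, at −0.84 in Ireb2-/- (adjusted p = 0.175) and 0.55 in Aco1-/- (adjusted p = 0.227). For Fbxl5 the difference of effects was −0.23 in RNA, 0.19 in RPFs and 0.40 in TE, none past the threshold. Of the 10 nearest genes on each side, 10 around Aco1 and 12 around Ireb2 were tested, and 1 was called in any comparison. Psma4, a proteasome subunit beside Ireb2, fell in Aco1-/- RPFs by 0.52 (adjusted p = 0.0325), where 0.692% of all genes were called lower. It gave −0.32 in Ireb2-/- (adjusted p = 0.739).

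**Figure D1:**
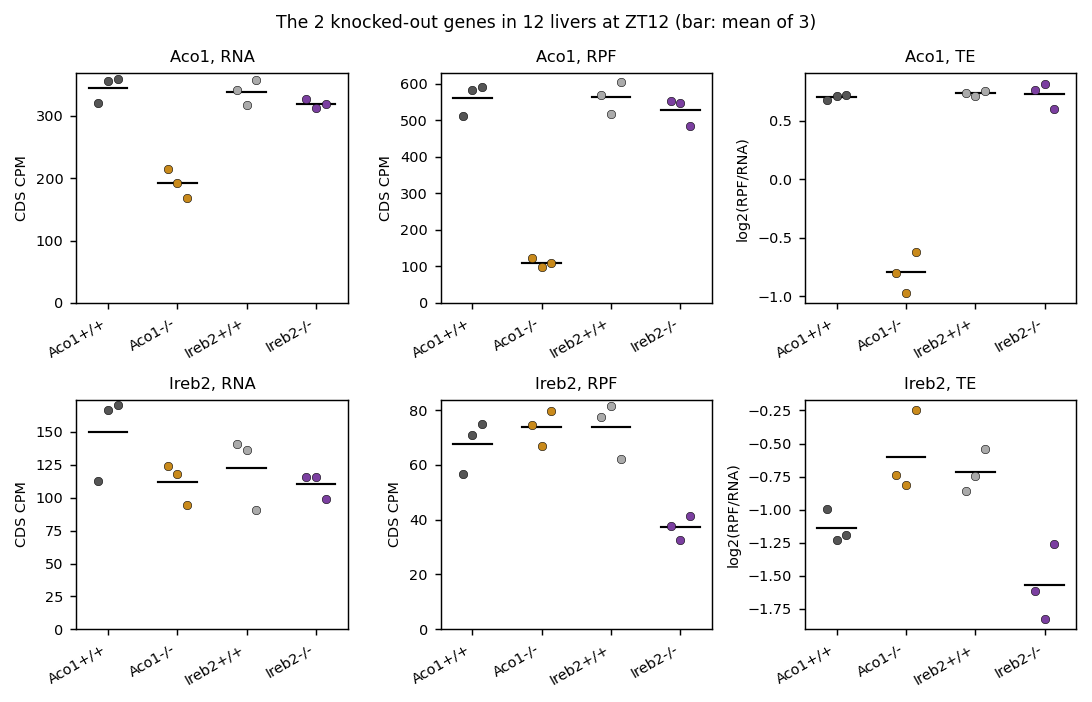
Levels of Aco1 (upper row) and Ireb2 (lower row) in each of the 12 livers, as RNA CPM, RPF CPM and log2 TE, by group; points are mice and bars the mean of 3. RPFs of each deleted gene are lowest in the line that lacks it, and the log2 TE of Ireb2 runs from −1.83 in Ireb2-/- to −0.25 in Aco1-/-.

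The effects of losing IRP1 and IRP2 were compared gene by gene. Over 5722 genes with a mean of at least 10 CPM in both kinds of library, Pearson's r between the Aco1 effect and the Ireb2 effect was 0.020 in RNA, −0.012 in RPFs and −0.070 in TE, and Spearman's rho was 0.093, −0.0054 and −0.041. The effects had the same sign in 53.7% of genes in RNA, 49.4% in RPFs and 48.6% in TE. These are descriptions across genes, which are not independent replicates, and the points within a line share libraries and control mice. In RPFs the SD of the effects over genes was 0.30 for Aco1 and 0.24 for Ireb2, with median SEs of 0.16 and 0.16. In RNA the SDs were 0.30 and 0.23, with median SEs of 0.19 and 0.20, and in TE 0.26 and 0.21, with median SEs of 0.21 and 0.23. The Ireb2 effects thus varied over genes little more than their error in RNA and no more than it in TE, so a correlation near 0 there does not show that the underlying effects differ. With each liver left out in turn, r ran from −0.02 to 0.15 in RNA, the highest without Ireb2+/+ replicate 3, from −0.0779 to 0.0743 in RPFs and from −0.13 to 0.0095 in TE. Restricting the comparison to the 1722 genes with at least 50 CPM gave r values of 0.16 in RNA, 0.021 in RPFs and −0.10 in TE. Among genes over the 10 CPM floor, 35 differed by more than 1 on the log2 scale in Aco1-/- RPFs and 22 in Ireb2-/- RPFs. Of these, 4 did so in the same direction in both lines and 2 in opposite directions.

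**Figure D2:**
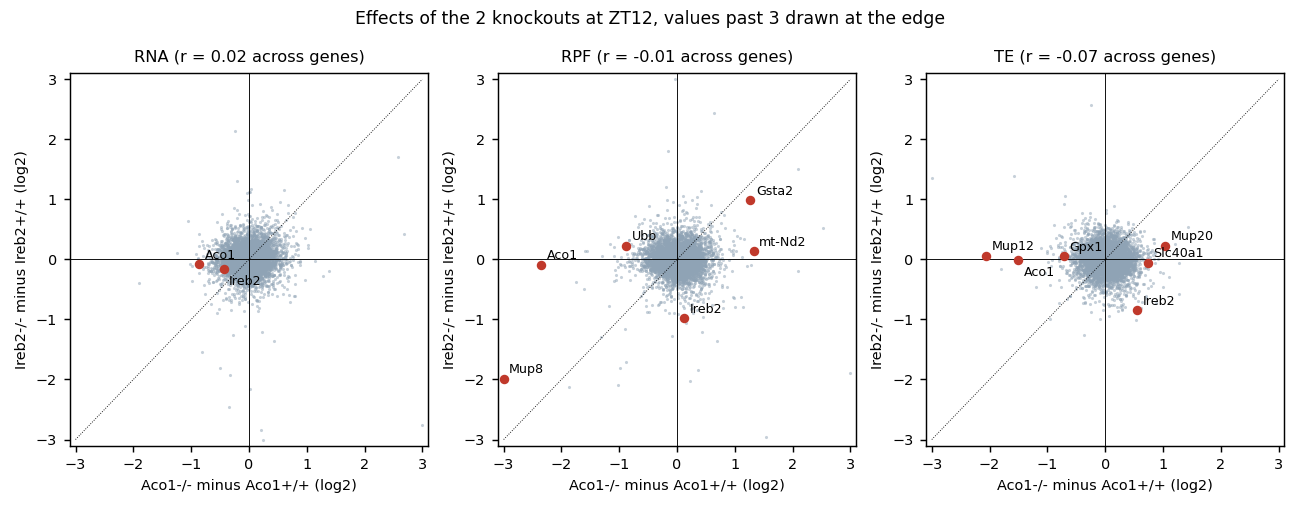
The Aco1 effect (x axis) against the Ireb2 effect (y axis) in RNA, RPFs and TE, as log2 differences of knockout from control; grey points are the 5722 genes over the floor, red points are labelled genes, the dotted diagonal marks equal effects, and values past 3 are drawn at the edge. The clouds show no slope, with r of 0.020, −0.012 and −0.070.

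Counts of called genes were low in the test of the difference of effects. In RNA edgeR called 0 of 10696 genes (0%), with 516 at an unadjusted p under 0.05, and DESeq2 also called 0. In RPFs it called 2 genes (0.0187%), both lower in Aco1-/- relative to Ireb2-/-, Aco1 itself and Ubb. In TE it called 4 genes (0.0374%): Ireb2, the 1 that was higher (0.00935%), and Aco1, Mup12 and Gpx1, the 3 that were lower (0.028%). Without Aco1-/- replicate 3 the counts were 95 in RPFs and 42 in TE, and without Ireb2-/- replicate 1 they were 1 in RPFs and 1 in TE.

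Ubb, which encodes polyubiquitin, had fewer RPFs in Aco1-/- than in its control, while the groups of the Ireb2 line overlapped. Its RPF level was 182, 193 and 182 CPM in Aco1+/+ and 105, 95 and 104 CPM in Aco1-/-. It was 121.5, 131.9 and 181.2 CPM in Ireb2+/+ and 162, 169 and 180 CPM in Ireb2-/-. The Aco1-/- values were the lowest of the 12. The lines differed by −1.11 ± 0.18 (adjusted p = 0.0447), made of an Aco1 effect of −0.88 (adjusted p = 0.00283) and an Ireb2 effect of 0.23. In RNA the difference was −0.46 and in TE −0.67, neither past the threshold. When each liver was left out in turn, the call held in 3 of 12 fits. Ubb shares its repeated ubiquitin unit with other ubiquitin genes, so reads may have been divided among them.

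Gpx1, the cytosolic glutathione peroxidase that uses selenocysteine, had a log2 TE of 0.57, 0.44 and 0.11 in Aco1+/+ and −0.39, −0.19 and −0.44 in Aco1-/-. In the other line it was 0.09, 0.18 and −0.05 in Ireb2+/+ and 0.20, 0.20 and −0.01 in Ireb2-/-. TE was below every other liver in all 3 Aco1-/- mice, and the Ireb2 groups overlapped. The lines differed by −0.77 ± 0.16 (adjusted p = 0.0462), and the Aco1 effect was −0.72 (adjusted p = 0.000423). The Aco1 effect on RPFs was −0.61 (adjusted p = 0.0325). In RNA the difference of effects, which is not the Aco1 effect alone, was 0.14. With each liver left out in turn, 4 of 12 fits kept the call.

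Mup12, one of the major urinary proteins, a cluster of near-identical secreted lipocalins, had a log2 TE of 2.41, 2.24 and 2.15 in Aco1+/+ and −0.35, 0.31 and 0.83 in Aco1-/-. In the Ireb2 line it was 1.76, 1.87 and 1.72 in controls and 2.12, 2.62 and 0.84 in Ireb2-/-, with overlapping groups. This gave a difference of effects of −2.12 ± 0.41 (adjusted p = 0.0351). RPFs were lower in both knockouts, at 34.2, 16.1 and 12.6 CPM in Aco1-/- and 36.6, 17.3 and 15.4 CPM in Ireb2-/-, against 70.1 CPM or more in all 6 controls. RNA was at 13.7, 15.2 and 20.1 CPM in Aco1+/+ against 43.7, 13 and 7.08 CPM in Aco1-/-, and at 31.6, 33.4 and 21.3 CPM in Ireb2+/+ against 8.31, 2.72 and 8.52 CPM in Ireb2-/-. Reads of this family cannot be assigned with certainty to 1 copy, and 3 of 12 fits with a liver left out kept the call.

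Further genes lay outside the threshold. Hspe1, the small subunit of the mitochondrial chaperonin, had RPF levels of 65.6, 63.7 and 66.3 CPM in Aco1+/+ and 15.3, 16.8 and 32.9 CPM in Aco1-/-. It was at 63.9, 73.2 and 70.6 CPM in Ireb2+/+ and 75.6, 71.1 and 81.6 CPM in Ireb2-/-, and the difference of effects was −1.74 ± 0.28 (adjusted p = 0.0516). The mitochondrially encoded mt-Nd2, a subunit of complex I, gave 1.19 ± 0.21 in RPFs (adjusted p = 0.0527). The urinary protein gene Mup20 gave 0.81 in TE (adjusted p = 0.071). In RNA the genes with the smallest p were Wdr62 at 2.75 and Tgfa at 2.27, both on few reads, and Glg1 at −0.82 and Aco1 at −0.77, all with an adjusted p of 0.958.

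**Figure D3:**
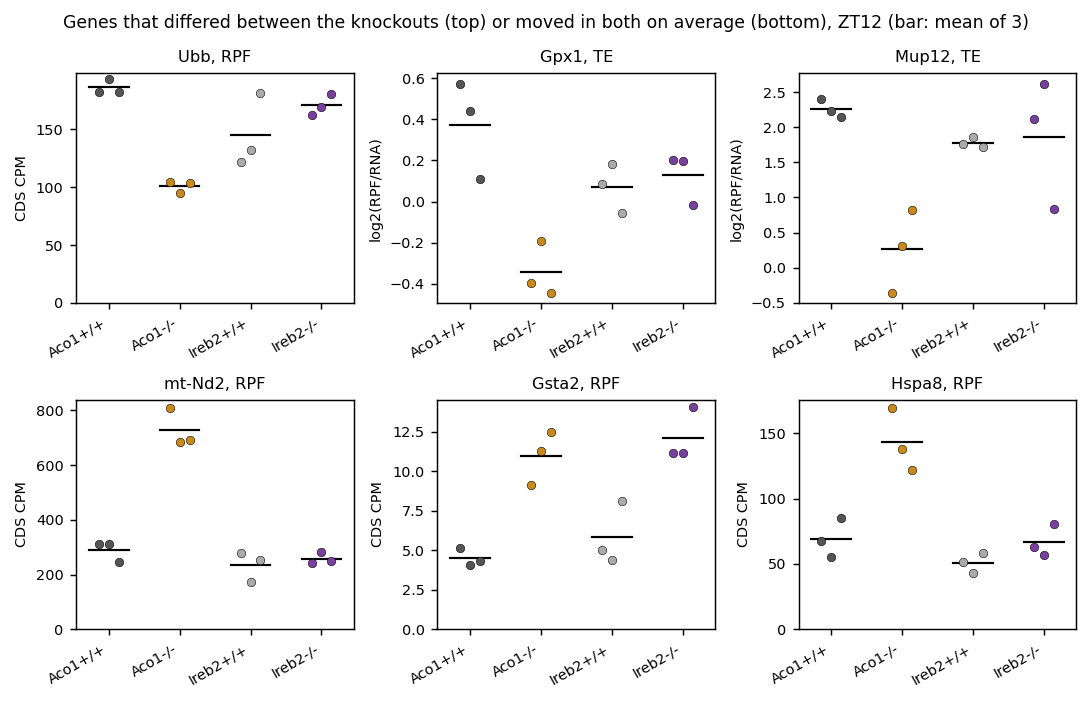
Ubb RPFs, Gpx1 TE and Mup12 TE (upper row) and mt-Nd2, Gsta2 and Hspa8 RPFs (lower row) in each liver by group, with RPFs in CPM and TE as log2; points are mice and bars the mean of 3. In the upper row the Aco1-/- livers reach the lowest values, and of the genes in the lower row Gsta2 alone separates both knockouts from their controls.

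The shared effect found few genes, and most of them moved mainly in Aco1-/-. In RNA edgeR called 0 genes (0%), with 655 at an unadjusted p under 0.05, and DESeq2 called 3. In RPFs it called 9 genes (0.0841%), 7 higher (0.0654%) and 2 lower (0.0187%), and in TE 2 genes (0.0187%). Without Aco1-/- replicate 3 these counts were 130 in RPFs and 32 in TE. The RPF calls were mt-Nd2, mt-Atp8, mt-Cytb, mt-Nd5, Gsta2, Hspa8 and Ctsd, which were higher, and Aco1 and Mup8, which were lower. The TE calls were Mup20, higher, and Aco1, lower.

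Gsta2, a glutathione S-transferase of the alpha class, was the RPF call with the most even effects. It had 5.17, 4.06 and 4.32 CPM in Aco1+/+ and 9.14, 11.3 and 12.5 CPM in Aco1-/-, and 5.04, 4.35 and 8.1 CPM in Ireb2+/+ and 11.1, 11.1 and 14 CPM in Ireb2-/-. All 6 knockout livers were above all 6 controls. The shared effect was 1.13 ± 0.17 (adjusted p = 0.0094), with 1.27 in Aco1-/- (adjusted p = 0.0144) and 0.99 in Ireb2-/- (adjusted p = 0.598). It passed in 17 of 18 fits and not without Ireb2-/- replicate 3 (adjusted p = 0.0616).

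Mup8 RPFs were 32.8, 17.4 and 13.3 CPM in Aco1+/+ and 1.04, 1.04 and 0.723 CPM in Aco1-/-, and 12.5, 30.5 and 12.9 CPM in Ireb2+/+ and 4.69, 7.42 and 2.19 CPM in Ireb2-/-. The groups did not overlap in either line. The shared effect was −3.22 ± 0.41 (adjusted p = 0.0265), with −4.45 in Aco1-/- (adjusted p = 0.0116) and −1.99 in Ireb2-/- (adjusted p = 0.659). As for Mup12, shared reads within the family leave the gene copy uncertain.

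The other shared calls were carried by Aco1-/-. Hspa8, the constitutive cytosolic HSP70 chaperone, had RPF effects of 1.04 in Aco1-/- and 0.39 in Ireb2-/- (shared 0.72, adjusted p = 0.0403), and its shared call held in 8 of 18 fits. Ctsd, the lysosomal protease cathepsin D, had 0.68 and 0.27 (shared 0.47, adjusted p = 0.0457), a call kept in 6 of 18 fits. The shared calls of mt-Nd2, mt-Atp8, mt-Nd5 and mt-Cytb held in 17, 14, 6 and 5 of 18 fits, that of Mup8 in 12 of 18, and that of Mup20 in TE in 17 of 21. Mup20 had TE effects of 1.04 and 0.23, with a log2 TE of −0.46, −0.58 and −0.51 in Aco1+/+ and 0.40, 0.80 and 0.37 in Aco1-/- (shared 0.64 ± 0.09, adjusted p = 6.59e-05). In RNA the smallest p values for a shared effect belonged to Aco1 at −0.47, Hcfc1r1 at 0.95, Col1a1 at 0.90 and Mup3 at −0.51, with adjusted p of 0.138 for Aco1 and 0.378 for the rest. Mup3 had nearly equal effects, −0.51 and −0.50, and its groups did not overlap in either line.

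Within single lines, the Aco1 effect on RPFs held most of the calls. It passed the threshold in 1.04% of genes, 37 higher (0.346%) and 74 lower (0.692%), against 2 genes (0.0187%) for the Ireb2 effect, Ireb2 and the pseudogene Gm5244. The lines also differed in depth. RPF libraries of the Aco1 line held 6606725 to 10075277 CDS reads, each from 2 runs. Those of the Ireb2 line held 3987815 to 11061211, with 2 runs only for Ireb2+/+ replicate 3. The part of depth in these counts was not tested, and counts from the first run alone are given below. Without Aco1-/- replicate 1 the number of Aco1 calls was 13, and without Aco1-/- replicate 3 it was 457. In RNA each line had 1 gene (0.00935%), Aco1 in one, where the count was 98 without Aco1-/- replicate 2, and Gm5244 in the other. In TE the Aco1 effect had 8 (0.0748%), or 174 without Aco1-/- replicate 3, while the Ireb2 effect had 0 (0%), with 266 at an unadjusted p under 0.05 and 0 by DESeq2. A gene past the threshold in 1 line is not thereby shown to differ between lines. Of the 37 genes higher in Aco1-/- RPFs, with a median of 0.77, the median Ireb2 effect was 0.075, and 22 had a positive Ireb2 effect, against 54.7% of all genes tested. Of the 74 lower genes, with a median of −0.82, the median Ireb2 effect was −0.0065, and 38 had a negative Ireb2 effect, against 45.3% of all genes.

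For these genes the difference of effects was at an unadjusted p under 0.05 in 30 of the 37 and 71 of the 74, and called in 2. Because they were chosen by the Aco1 effect, which is 1 of its 2 terms, those counts are descriptions only. None of them was called in Ireb2-/- RPFs. The Ireb2 groups also did not overlap, in the same direction, in 3 of the 37 higher genes, against 5.93% of all genes higher without overlap, and in 2 of the 74 lower genes, against 4.72%, so these counts are near the background. They were Fads1 (0.48 in Aco1-/- and 0.26 in Ireb2-/-), Gsta2 and Ormdl1 (1.49 and 0.73), which were higher, and Psma4 and Mup8, which were lower, named here after their values were seen. Fads1 is the delta-5 fatty acid desaturase and Ormdl1 a regulator of sphingolipid synthesis.

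The 5′ IRE transcripts were compared in TE, where a bound IRP acts. The median difference of effects over the 5 described here, Ftl1, Fth1, Alas2, Slc40a1 and Epas1, was 0.68, with 4 of 5 positive, against a median of 0.0036 over all 10696 genes. The median Aco1 effect was 0.59, with 5 of 5 positive, and the median Ireb2 effect was −0.0017, with 2 of 5 positive. No difference of effects in this list was called, and 1 Aco1 effect was, that of Slc40a1, against 0.0374% of all genes called higher in TE.

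Slc40a1, on chromosome 1 (GRCm38.p6 chr1:45908070-45926532), encodes ferroportin, the cellular iron exporter. Its log2 TE was −0.67, −0.44 and −0.23 in Aco1+/+ and −0.02, 0.39 and 0.42 in Aco1-/-, and 0.10, 0.15 and −0.28 in Ireb2+/+ and 0.10, −0.21 and −0.06 in Ireb2-/-. The groups separated in the Aco1 line and overlapped in the Ireb2 line. The Aco1 effect was 0.74 ± 0.14 (adjusted p = 0.0131) and the Ireb2 effect −0.05. The Aco1 call held in 17 of 21 fits, and not without Aco1+/+ replicate 1 (adjusted p = 0.218) or replicate 2 (adjusted p = 0.131), without pairing by mouse (adjusted p = 1) or with limma (adjusted p = 0.709). The difference of effects, 0.79 ± 0.20, had an unadjusted p of 0.000413 and an adjusted p of 0.401, and was past the threshold without Aco1-/- replicate 3 (adjusted p = 0.0335) and in no other fit.

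Epas1, on chromosome 17 (GRCm38.p6 chr17:86753864-86833410), encodes the hypoxia-inducible factor HIF-2α. Its log2 TE was 0.19, 0.73 and 0.76 in Aco1+/+ and 1.05, 1.13 and 0.83 in Aco1-/-, and 0.32, 0.54 and 0.25 in Ireb2+/+ and 0.20, 0.15 and 0.02 in Ireb2-/-. The groups did not overlap in either line, with higher values in Aco1-/- and lower values in Ireb2-/-. The difference of effects was 0.68 ± 0.19 (adjusted p = 0.644), from 0.43 in Aco1-/- and −0.25 in Ireb2-/-.

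Alas2, on chromosome X (GRCm38.p6 chrX:150547417-150570622), encodes the erythroid enzyme for the first step of heme synthesis. Its log2 TE was −1.10, −0.68 and −0.50 in Aco1+/+ and −0.39, 0.01 and −0.15 in Aco1-/-, and −0.26, −0.19 and −0.83 in Ireb2+/+ and −0.17, −0.21 and −0.86 in Ireb2-/-. Here too the Aco1 groups separated and the Ireb2 groups overlapped, but the difference of effects, 0.59 ± 0.27, was far from the threshold (adjusted p = 0.889). The erythroid marker sums varied between Aco1-/- livers as given above, and their part in the Alas2 values was not tested.

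The ferritin subunits had low and scattered TE. Fth1, the heavy chain, on chromosome 19 (GRCm38.p6 chr19:9980600-9985111), had a log2 TE of −3.54, −2.18 and −2.03 in Aco1+/+ and −2.05, −1.21 and −0.19 in Aco1-/-, and −1.56, −1.20 and −2.32 in Ireb2+/+ and −0.58, −1.41 and −1.47 in Ireb2-/-. Ftl1, the light chain, on chromosome 7 (GRCm38.p6 chr7:45457944-45459886), ranged from −4.29 to −1.18 over the 12 livers, with both extremes in knockouts. Groups overlapped in both lines for both genes. The difference of effects was 0.90 ± 0.83 for Fth1 and −0.21 ± 0.99 for Ftl1, errors too wide to set a direction. Both have processed copies elsewhere in the genome that can take reads.

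**Figure D4:**
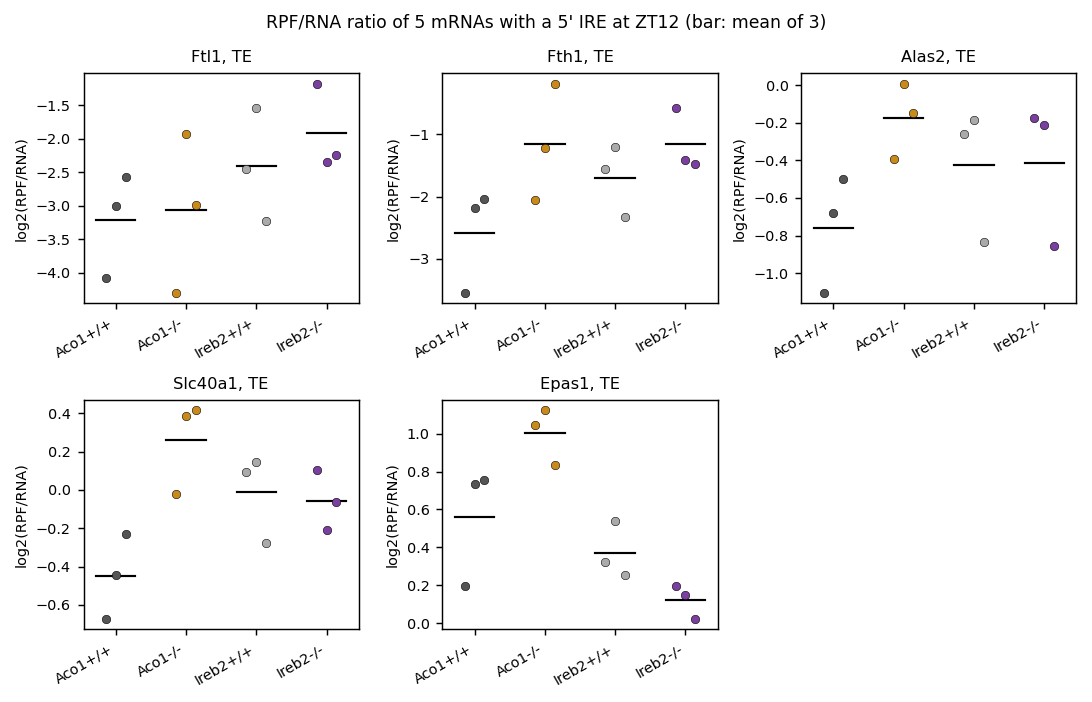
Log2 TE of the 5′ IRE transcripts Ftl1, Fth1, Alas2, Slc40a1 and Epas1 in each of the 12 livers by group; points are mice and bars the mean of 3. Slc40a1 and Epas1 are higher in all 3 Aco1-/- livers than in their controls, while the ferritin values spread over several log2 units.

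The 3′ IRE transcripts were compared in RNA, where a bound IRP stabilises the message. Tfrc, on chromosome 16 (GRCm38.p6 chr16:32608896-32632794), had 60, 40.2 and 38.7 CPM in Aco1+/+ and 58, 16.2 and 10.1 CPM in Aco1-/-, and 30.1, 20.4 and 50.9 CPM in Ireb2+/+ and 35.3, 47.9 and 68.1 CPM in Ireb2-/-. The groups overlapped in both lines. The difference of effects was −1.69 ± 0.86 (adjusted p = 0.958), with −1.06 in Aco1-/- and 0.64 in Ireb2-/-. Slc11a2, the iron importer DMT1, on chromosome 15 (GRCm38.p6 chr15:100387898-100424209), gave −0.61 ± 0.36 (adjusted p = 0.958). With 3 mice a group and this spread, an RNA difference of the size seen for Tfrc could not be told from 0.

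Of the other transcripts reported to carry an IRE-like element, App and Hao1 gave the clearest RPF values. App, the amyloid precursor protein, had 167, 162 and 151 CPM in Aco1+/+ and 118.6, 112.2 and 147.2 CPM in Aco1-/-, and 157, 159 and 154 CPM in Ireb2+/+ and 185, 199 and 191 CPM in Ireb2-/-. The groups did not overlap and stood in opposite order, lower without IRP1 and higher without IRP2, with a difference of effects of −0.64 ± 0.16 (adjusted p = 0.154). Hao1, the peroxisomal glycolate oxidase, had 543, 503 and 552 CPM in Aco1+/+ and 343, 356 and 378 CPM in Aco1-/-. It fell in Aco1-/- by 0.57 (adjusted p = 0.0173) and gave −0.17 in Ireb2-/-, and the difference of effects was −0.39 (adjusted p = 0.391). Cdc42bpa gave −0.13 in RNA, 0.05 in RPFs and 0.21 in TE, and Pfn2 had between 0 and 4 RNA reads per library.

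Beyond the IREs, the hepcidin and iron transport lists had median differences of effects near 0, and the iron-sulfur list a negative one. In the hepcidin and BMP-SMAD list the median RPF difference of effects was 0.02 over 22 genes, and in the list of iron transport and heme scavenging it was 0.07 over 25, against −0.018 over all genes, with 0 called in either. The iron transport list summed to 23726 RPF CPM in Ireb2-/- replicate 2 and to between 14488 and 16748 in the other 11 livers. That liver also had the highest sums of acute-phase genes, 49357 RPF CPM, and of Kupffer cell markers, 950.1 RPF CPM, and their part in these medians was not tested. Hamp, which encodes hepcidin, gave −0.65 ± 0.22 in TE (adjusted p = 0.722). Hif1a gave 0.33 in RPFs and 0.40 in TE. The iron-sulfur cluster assembly list had a median RPF difference of −0.22, with 6 of 29 positive. Iscu, the scaffold on which the cluster is built, had 32.8, 30.7 and 25.6 CPM in Aco1+/+ and 13.3, 15.8 and 15.9 CPM in Aco1-/-, against 26.4, 37.1 and 26.4 CPM in Ireb2+/+ and 29.6, 22.9 and 31.8 CPM in Ireb2-/-. It was called lower in Aco1-/-, the 1 member of its list called there, against 0.692% of all genes. It did not separate in the Ireb2 line, and its difference of effects was −0.91 ± 0.25 (adjusted p = 0.18). Nubp2, a scaffold of cytosolic cluster assembly, gave −0.82 (adjusted p = 0.189), and Fdx1, a ferredoxin, −0.65 (adjusted p = 0.236).

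The mitochondrially encoded mRNAs, which code for core subunits of the respiratory chain and ATP synthase, had their larger RPF effect in Aco1-/-. Of 12 tested, 6 rose in Aco1-/- (mt-Nd1, mt-Nd2, mt-Nd5, mt-Co1, mt-Cytb and mt-Atp8), against 0.346% of all genes, and 0 were called in Ireb2-/-, with medians of 1.00 and 0.13. The median difference of effects was 0.90 in RPFs, with 8 of 12 at an unadjusted p under 0.05 against 1120 of all 10696 genes, and 0.52 in RNA, and none was called. In mt-Nd2 RPFs the levels were 313, 312 and 246 CPM in Aco1+/+ and 808, 683 and 690 CPM in Aco1-/-, and 279, 174 and 253 CPM in Ireb2+/+ and 243, 283 and 250 CPM in Ireb2-/-. The 3 Aco1-/- livers were far above every other liver. Mitochondrial genes made up 0.436% to 0.531% of RPF reads in Aco1-/- and 0.159% to 0.269% in the other 9 livers. In RNA they made up 5.04% to 7.21% in Aco1-/- and 3.07% to 4.94% elsewhere. Nuclear copies of mitochondrial sequence may share some of these reads.

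The nuclear-encoded subunits of the respiratory chain and ATP synthase had the opposite sign. Their median RPF difference of effects was −0.21 over 75 genes, with 55 negative and 28 at an unadjusted p under 0.05 against 1120 of all 10696 genes, and 0 called. In Aco1-/- RPFs 1 rose (Ndufa4) and 4 fell (Ndufa1, Ndufv3, Uqcr11 and Uqcrh), against 0.346% and 0.692% of all genes, with a list median of −0.09, while in Ireb2-/- 68 of 75 were positive, the median was 0.12 and 0 were called. Ndufv3 of complex I had 158.8, 125.2 and 118.1 CPM in Aco1+/+ and 79, 86 and 75.5 CPM in Aco1-/-, with a difference of effects of −0.85 ± 0.19 (adjusted p = 0.104). Uqcr11 of complex III gave −1.15 ± 0.26 (adjusted p = 0.126).

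The cytosolic ribosomal protein mRNAs had their larger median effect in Ireb2-/-. These mRNAs carry a 5′ terminal oligopyrimidine tract, through which their translation follows growth signals. Over 76 genes the median RPF effect was −0.60 in Ireb2-/-, with 71 negative, and 0.12 in Aco1-/-, with 46 positive. The median difference of effects was 0.65 in RPFs and 0.79 in TE, but −0.02 in RNA. In RPFs 36 of the 76 were lower in Ireb2-/- without overlap, against 4.72% of all genes lower without overlap, and 0 of the 76 were called. Summed RPFs of the list were 4080, 3693 and 2965 CPM in Ireb2+/+ and 2324, 2733 and 2180 CPM in Ireb2-/-, against 2072, 3198 and 2457 CPM in Aco1+/+ and 2440, 2930 and 3043 CPM in Aco1-/-. The Ireb2+/+ livers thus included the highest sums of the 12, and the Ireb2-/- livers lay within the range of the Aco1 line.

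Of the ribosomal protein genes, Rps6, a small-subunit protein, had 12.9, 21.9 and 16.6 RPF CPM in Aco1+/+ and 28.9, 42 and 31.1 CPM in Aco1-/-, and 30, 25.3 and 18 CPM in Ireb2+/+ and 18.2, 13 and 14.9 CPM in Ireb2-/-. It rose in Aco1-/- (0.99, adjusted p = 0.0325) and overlapped in the Ireb2 line, with a difference of effects of 1.63 ± 0.32 (adjusted p = 0.0693). Rpl4 gave 1.05 (adjusted p = 0.0693), Rpl21 2.51 (adjusted p = 0.0867) and Rpl36 2.24 (adjusted p = 0.0955). Rps6, Rpl10a and Rpl21 were the 3 members called in Aco1-/- RPFs, all higher, against 0.346% of all genes. Over 18 fits the median difference of effects of the list ran from 0.47 to 0.88, whereas the Aco1 median ran from −0.05, without Aco1+/+ replicate 1, to 0.33. Ribosomal protein genes have many processed pseudogenes, so the level of any single gene is uncertain.

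The major urinary proteins also had their larger median effect in Ireb2-/-, in RNA. The median RNA effect over 16 tested genes was −1.73 in Ireb2-/-, with 0 positive, and −0.02 in Aco1-/-. The median difference of effects was 1.79 in RNA and 0.89 in RPFs. These medians count each gene alike, also Mup8 with 0 to 11 RNA reads per library. Summed RNA of the list was 7013, 7497 and 8605 CPM in Aco1+/+ and 7261, 5590 and 3282 CPM in Aco1-/-. It was 5284, 6278.5 and 3861 CPM in Ireb2+/+ and 3437, 3619 and 3027 CPM in Ireb2-/-. The middle value of the 3 sums was thus lower in both knockouts, and the groups overlapped in the Aco1 line only. In RPFs 2 members fell in Aco1-/- (Mup8 and Mup21), against 0.692% of all genes, and 0 were called in Ireb2-/-. Mup21 had 252.4, 229.3 and 234.4 CPM in Aco1+/+ and 64.5, 65.2 and 82.4 CPM in Aco1-/-, and 179.4, 197.4 and 132.7 CPM in Ireb2+/+ and 94.9, 197 and 102 CPM in Ireb2-/-, with a difference of effects of −1.39 ± 0.35 (adjusted p = 0.201). It therefore ran against the median of its family. The family took 0.336% to 0.412% of RNA reads in Ireb2-/- and 0.455% to 0.752% in Ireb2+/+, and 0.37% to 0.838% in Aco1-/- against 0.829% to 0.951% in Aco1+/+, with the lowest value of Aco1-/- in replicate 3.

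**Figure D5:**
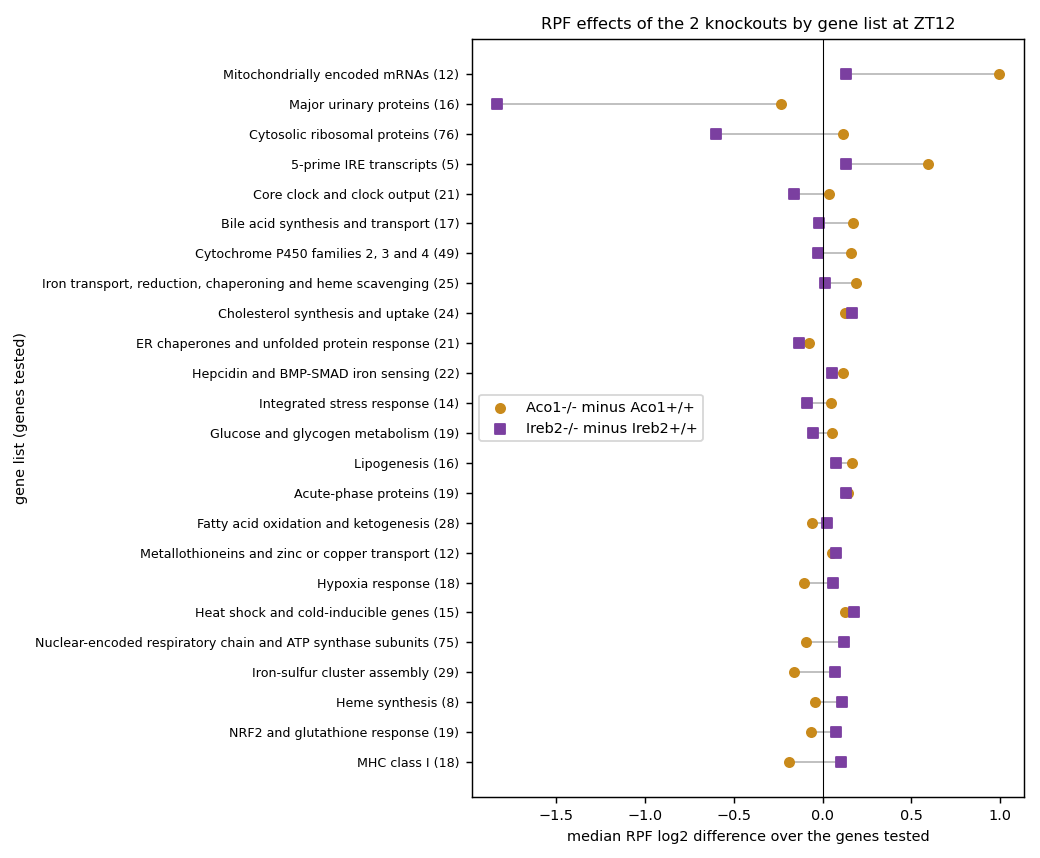
Median RPF log2 difference of knockout from control in each gene list with at least 5 tested members, for the Aco1 effect and the Ireb2 effect. The mitochondrially encoded mRNAs lie at 1.00 and 0.13, the ribosomal proteins at 0.12 and −0.60, and the major urinary proteins at −0.23 and −1.83; most other lists lie near 0 in both.

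Most metabolic lists had a median difference of effects near 0, which does not show that neither line moved. The median RPF difference of effects was 0.05 for cholesterol synthesis (24 genes), −0.00 for lipogenesis (16), −0.02 for fatty acid oxidation and ketogenesis (28), −0.00 for glucose and glycogen metabolism (19), 0.18 for bile acids (17) and 0.17 for the cytochrome P450 families (49), each with 0 called. Summed lipogenesis RPFs were 10917, 9332 and 11395 CPM in Ireb2+/+ and 13711, 13450 and 17398 CPM in Ireb2-/-, without overlap. In the Aco1 line they were 16522, 10388 and 14025 CPM in controls and 14270, 17561 and 15822 CPM in Aco1-/-, with overlap. Core clock and output genes had a median difference of effects of 0.29, with 17 of 21 positive, an Ireb2 median of −0.16 and 0 called. Per3 gave 0.68 (adjusted p = 0.451). MHC class I genes had −0.35, with 3 of 18 positive, and H2-D1 gave −0.54 (adjusted p = 0.197). The NRF2 list had −0.29 over 19 genes, with Srxn1, which reduces oxidised peroxiredoxins, at −1.23 (adjusted p = 0.217).

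Genes of the integrated stress response had a median RPF difference of effects of 0.01 (14 genes), the unfolded protein response 0.03 (21), acute-phase proteins −0.02 (19), metallothioneins and metal transporters −0.04 (12) and the hypoxia response −0.09 (18). Atf4, the transcription factor of the integrated stress response, had a log2 TE of −1.93, −2.05 and −2.06 in Aco1+/+ and −2.54, −2.58 and −2.21 in Aco1-/-, with a difference of effects of −0.75 ± 0.27 (adjusted p = 0.722). Herpud1, a component of endoplasmic-reticulum-associated degradation, gave 0.73 in RPFs (adjusted p = 0.183). The chaperones split, with Hspe1 and Hspb1 at −1.74 and −1.43 in RPFs and Dnaja1 at 0.91, and the list median was −0.09.

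At ZT5, in 12 other livers of the same lines, the same test called 0 genes in RNA, with 467 at an unadjusted p under 0.05, 1 in RPFs and 2 in TE. The calls were Aco1 in RPFs (−2.20) and in TE (−1.42, adjusted p = 4.97e-06) and Ireb2 in TE (1.30, adjusted p = 0.0118). Ubb, Gpx1 and Mup12 were not called there, with −0.31 in RPFs, 0.04 in TE and 0.75 in TE. Gsta2 had a shared RPF effect of 0.13 and mt-Nd2 of −0.48 at ZT5, while Mup8 had −1.73 (adjusted p = 0.00126). The median RPF difference of effects at ZT5 was −0.58 for ribosomal proteins, with 5 of 76 positive, and 0.36 for mitochondrially encoded mRNAs. The latter came from medians of −0.17 in Aco1-/-, with 3 of 12 positive, and −0.52 in Ireb2-/-, with 0 of 12 positive, and the former from −0.21 and 0.35. For the 5′ IRE transcripts in TE it was −0.012, with a median Aco1 effect of 0.47, 5 of 5 positive, and a median Ireb2 effect of 0.36. Among the differences of effects, those of the deleted genes were called at both times, and whether any difference of effects changed between ZT5 and ZT12 was not tested.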

How the data were processed

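The deposited tables hold raw read counts per gene, made by the authors. Per the study's methods, reads were trimmed with cutadapt 3.5, filtered for quality and length, cleared of rRNA and tRNA reads with Bowtie2 and mapped with STAR 2.70f to the mouse genome of Ensembl release 100 (GRCm38). The counting tool and strand setting are not given in the sources used here. The columns are unnamed. Column 3 was read as CDS from its values, and it held 93.2% to 96.1% of RPF and 54.9% to 63.8% of RNA reads. Runs of a library were summed (2 runs in 6 RNA and 7 RPF libraries).

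Of 25266 genes, 10696 passed edgeR's filterByExpr (minimum count 10, total 15) over 48 libraries, which were scaled by upper quartile. Effects were fitted on the 24 libraries of ZT12 with edgeR 4.0.16 (robust quasi-likelihood, R 4.3.3), and TE with a term per mouse. Per-mouse TE used a prior count of 0.5. The fit was also run on simulated data, with an outcome that is not given here and not relied on. Genes were named by a rule: the IRPs and Fbxl5, IRE transcripts, calls of the difference and shared effects without predicted genes, list examples by smallest p, and called neighbours. One listed item is not reported here. The members and lists were chosen with earlier results of these data known. Reading replicate numbers as pairs had no support in the labels, and same-numbered deviations correlated between −0.147 and 0.144. No pair of replicates agreed within sampling noise. Alternatives were TMM scaling, no filter, the first run only, all 24 livers in one fit, a replicate block, all RNA count columns, DESeq2 1.42.0, limma 3.58.1, an unpaired TE fit, and each liver left out. Counting error and mouse-to-mouse spread are not separated.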

Additional observations from a re-analysis of the deposited data

Results flagged for a closer look

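In 6 results the effect of the knockout differed between the Aco1 line and the Ireb2 line by a direct test of the difference (edgeR, adjusted p below 0.05). In RPFs they were Aco1, at −2.26 on the log2 scale, and Ubb, at −1.11. In TE they were Aco1 at −1.50, Ireb2 at 1.39, Mup12 at −2.12 and Gpx1 at −0.77. The values of Aco1 and Ireb2 are those of the deleted genes themselves.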

How the results depend on the processing

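Counts of calls moved with the processing. The difference of effects in RPFs (2 calls) gave 5 with TMM scaling, 6 with no filter, 9 from the first run of each library, 9 with all 24 livers in one fit, 14 with the replicate block and 51 with DESeq2. In TE (4 calls) it gave 2 with the block, 2 with DESeq2, 1 without pairing the libraries of a mouse and 0 with limma on log2 ratios. The shared effect in RPFs (9) gave 5 with TMM, 14 from the first run and 85 with DESeq2. In TE (2) it gave 4 with no filter, 1 with all 24 livers, 10 with all RNA count columns, 1 unpaired and 0 with limma, and in RNA (0) it gave 4 with the block and 3 with DESeq2. The Aco1 effect in TE (8) gave 22 with no filter, 18 with all 24 livers, 14 with the block, 35 with DESeq2, 115 with all RNA columns, 2 unpaired and 1 with limma. In RPFs (37 higher and 74 lower) it gave 48 from the first run and 233 with DESeq2, and in RNA (1) it gave 2 with the block, with DESeq2 and with all columns. The Ireb2 effect in RNA (1) gave 2 from the first run, 14 with the block, 3 with DESeq2 and 2 with all columns. In RPFs (2) it gave 4 from the first run, 4 with all 24 livers, 13 with the block and 11 with DESeq2, and in TE (0) it gave 1 from the first run. The cause of these changes was not tested. The replicate numbers are shared labels and not pairings, so counts under the block are given for completeness.

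With each liver left out in turn, the difference of effects gave 0 to 1 calls in RNA, 1 to 95 in RPFs and 1 to 42 in TE, with the highest RPF and TE counts without Aco1-/- replicate 3. Other RPF counts were 16 without Ireb2+/+ replicate 2, 8 without Ireb2+/+ replicate 3, 5 without Aco1+/+ replicate 2 2 without Ireb2-/- replicate 2 and 1 without any of the other 7 livers, and in TE 7 without Aco1-/- replicate 2, 2 without replicate 1 of Aco1+/+, Aco1-/- or Ireb2+/+, and 1 without Ireb2+/+ replicate 3 or Ireb2-/- replicates 1 and 2. The shared effect gave 0 to 7 in RNA, 2 to 130 in RPFs and 2 to 32 in TE, 4 or 5 in RPFs without Aco1-/- replicate 2, Ireb2+/+ replicate 1 or any Aco1+/+ replicate, 7 in RNA without Aco1-/- replicate 1, lowest in RPFs without Ireb2-/- replicate 3 and highest in RPFs and TE without Aco1-/- replicate 3. The Aco1 effect gave 1 to 98 in RNA (98 without Aco1-/- replicate 2), 13 to 457 in RPFs and 5 to 174 in TE. In RPFs it gave 17, 40 and 32 without Aco1+/+ replicates 1, 2 and 3, 18 without Aco1-/- replicate 2 and 64 without Ireb2+/+ replicate 1, with the highest counts in RPFs and TE without Aco1-/- replicate 3 and the lowest in RPFs without Aco1-/- replicate 1. In TE it gave 5 without Aco1+/+ replicate 1, 14 without Aco1-/- replicate 1 and 90 without Aco1-/- replicate 2. The Ireb2 effect gave 1 to 3 in RNA (3 without Ireb2-/- replicate 1, 2 without Ireb2+/+ replicate 2 or Aco1-/- replicate 1), 0 to 6 in RPFs (6 without Ireb2-/- replicate 1, 1 without Ireb2+/+ replicate 3, 0 without any other replicate of that line) and 0 to 2 in TE. Pearson's r over genes (0.020 in RNA, −0.012 in RPFs and −0.070 in TE) ran from −0.02 to 0.15 in RNA, −0.0779 to 0.0743 in RPFs and −0.13 to 0.0095 in TE.

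Among called genes, the difference of effects for Aco1 in RPFs was past the threshold in 18 of 18 fits, that for Aco1 in TE in 20 of 21, Ireb2 in TE in 15 of 21, Gpx1 in 9 of 21, Ubb in 9 of 18 and Mup12 in 7 of 21. No sign changed for a named value past the threshold. For the difference of effects, signs changed for Hif1a in RPFs (−0.0644 from the first run), Crp in RNA (0.0116 with all columns), Epas1 in RNA (−0.0033 with the block, −0.0132 with all columns, −0.10 to 0.19 with a liver left out), Ftl1 in RPFs (0.0912 from the first run, −0.92 to 0.13) and in TE (0.34 from the first run, −0.79 to 0.27), Hao1 in TE (−0.0363 with all columns, −0.28 to 0.36), Tfrc in TE (−0.36 from the first run, −0.12 to 0.17), and Cdc42bpa with a liver left out in RPFs (−0.22 to 0.20) and in TE (−0.17 to 0.45). For the Ireb2 effect in TE they were Alas2 (0.0126 with the block, 0.0122 with limma, −0.19 to 0.21) and Slc40a1 (−0.18 to 0.0304), and for the Aco1 effect in TE it was Ftl1 (−0.33 to 0.74). Every RNA library was shallower than every RPF library, and the shallowest had 852293 CDS reads.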

Other observations

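Gm5244, annotated as a pseudogene on chromosome 19 and named after its values were seen, had CDS reads mainly in livers without IRP2. Its CDS counts were 21, 24 and 20 in RNA and 15, 15 and 14 in RPFs in Ireb2-/- at ZT12, against 0 or 1 in every other liver at that time. Reads in its 3′ UTR occurred in all groups, with 3, 0 and 2 RNA counts in Ireb2-/- and 0, 13 and 2 in Aco1+/+. At ZT5 the Ireb2-/- livers had 24, 20 and 26 RNA counts and 6, 18 and 4 RPF counts in the CDS.

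In the untranslated part of the deleted gene, Aco1 3′ UTR RNA counts were 58, 206 and 247 in Aco1-/- and 194, 479 and 328 in Aco1+/+. Its 5′ UTR RPF counts were 72, 29 and 24 against 66, 71 and 89. These are raw counts, not scaled by depth. In the same order, the RNA libraries held 852293, 2985284 and 3262313 CDS reads in Aco1-/- and 2100886, 3934371 and 2879211 in Aco1+/+.

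Hamp RNA was 1380 CPM in Aco1-/- replicate 3 and between 495 and 995 CPM in the other 11 livers, and Hspe1 RPFs were 32.9 CPM in that liver against 15.3 and 16.8 CPM in the other Aco1-/- livers.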
